A study of Mus musculus with 17 samples.

Results

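A set of 10 genes of the Notch pathway was followed across the 4 culture conditions of an RNA sequencing study of mouse pancreatic stellate cells: the receptors Notch1, Notch2 and Notch3, the ligands Jag1 and Jag2, and the targets Heyl, Hey1, Hey2, Hes1 and Nrarp. They are 10 of the 35896 gene IDs in each count table and 10 of the 13923 genes that passed the filter on low counts. The group was assembled around Heyl, whose CPM (counts scaled to a common library total) were at or near 0 outside the TGF-beta libraries. The values of Heyl are therefore given as a description without a test, and the 9 other genes were tested with all 13923 genes.

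Notch signalling passes between touching cells. A ligand of the Jagged or Delta-like type on 1 cell pulls on a Notch receptor of its neighbour, proteases cut the receptor, and the freed intracellular domain enters the nucleus, where it joins the DNA-binding protein RBPJ and a Mastermind coactivator. The best known target genes encode repressors of the HES and HEY families and NRARP, which restrains the pathway in return. In blood vessels, NOTCH3 and HEYL are known from smooth muscle cells and pericytes, and in fibroblasts the pathway has been studied next to TGF-beta signalling.

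Stellate cells are resident mesenchymal cells of the pancreas, from which some fibroblasts of injured or tumour-bearing tissue arise. All libraries came from wild-type C57BL/6J cells of the lines PSC4 (passages 23 to 25) and PSC5 (passages 27 and 28), cultured in Matrigel, a basement membrane gel, and treated for 4 days. There were 5 libraries in control medium, 4 in control medium with 20 ng/mL TGF-beta, 4 in medium conditioned by pancreatic tumour organoids (CM), and 4 in CM with 300 nM neratinib, an irreversible inhibitor of the ERBB receptor kinases. Control medium stands for quiescent cells in the study's description and TGF-beta for myofibroblast-like cells. Conditioned medium carried the code T8 in the libraries numbered 1 and T6 in those numbered 2, and a number went with 1 passage of each line. How many animals or clones gave rise to the lines is not given in the sources used here, so p-values measure the spread between cultures of 2 lines. Because whole cultures were sequenced, fewer cells of a type and less RNA per cell cannot be told apart.

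Library totals lay between 22168953 and 29421447 counts, and 3 counts in 1 library were worth 0.101 to 0.137 CPM. The libraries labelled PSC4 replicate 1 stood apart from the others of that line. Of 81 genes at least 4-fold apart in control medium between the PSC4 libraries 2 and 3 and the PSC5 libraries, 97.5% lay nearer to PSC5 in the control library labelled PSC4 replicate 1, 84.0% in its CM library and 79.0% in its neratinib library. Other PSC4 libraries were at 48.1% and 44.4% with TGF-beta, 23.5% in CM and 30.9% with neratinib. PSC5 libraries outside control medium were at 76.5% to 85.2%. The label is kept here, and values without these 3 libraries are given where they change a result. Stellate cell and fibroblast markers (10 genes) summed to 4075 to 20443 CPM in every library (9907 to 20443 CPM with TGF-beta against 5447 to 6979 CPM in control medium). Col1a1 made up 5244 to 10485 CPM of the TGF-beta sums, while Pdgfra (56.7 to 198 CPM against 312 to 596 CPM) and Dcn (17.7 to 110 CPM against 137 to 233 CPM) of the same list lay below all control libraries with TGF-beta. Endothelial markers (8 genes) summed to at most 8.81 CPM, with Cldn5 at 0 in all groups. Leukocyte markers (6 genes) summed to at most 3.50 CPM except for 13.1 CPM in the neratinib library labelled PSC4 replicate 1. Epithelial markers (12 genes) summed to 15.9 to 27.9 CPM in control and TGF-beta libraries, but to 152 and 186 CPM in the T6 libraries of CM and 146 and 325 CPM in those of CM with neratinib, against 10.0 to 52.9 CPM in the T8 libraries.

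In GRCm38 coordinates with the gene models of GENCODE M21, Heyl lies at chr4:123233556-123249875 and Hey1 at chr3:8663359-8667256. Hey2 is at chr10:30832359-30842801 and Hes1 at chr16:30064384-30067796. The receptor genes are at chr2:26457903-26516663 (Notch1), chr3:98013527-98150361 (Notch2) and chr17:32120820-32166852 (Notch3). Jag1 spans chr2:137081456-137116644, Jag2 chr12:112907819-112929776 and Nrarp chr2:25180758-25183339. Each value counts reads over all transcripts of the gene. Antisense genes overlap Notch3 and Nrarp, transcripts of the opposite strand overlap Notch1 and short unnamed genes lie within Notch2, and since the counting is not stated to use strand, their reads may not be separable from those of these genes.

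Promoter sequence upstream of the annotated start is shown for 3 members that behaved differently: Hey2, which was lowest with neratinib, and Nrarp and Jag1, which were higher with TGF-beta. The sequences are from RefSeq (GRCm38.p6), 5′ to 3′ on the strand of the gene, and capitals mark the letters GTGGGAA, which RBPJ binds, on either strand.

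Hey2 (chr10:30842802-30843033, minus strand): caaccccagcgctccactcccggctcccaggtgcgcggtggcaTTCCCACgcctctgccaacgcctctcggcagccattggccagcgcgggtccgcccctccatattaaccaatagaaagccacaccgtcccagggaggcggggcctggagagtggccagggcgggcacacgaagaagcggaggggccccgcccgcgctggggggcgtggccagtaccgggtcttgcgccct
Nrarp (chr2:25180508-25180757, plus strand): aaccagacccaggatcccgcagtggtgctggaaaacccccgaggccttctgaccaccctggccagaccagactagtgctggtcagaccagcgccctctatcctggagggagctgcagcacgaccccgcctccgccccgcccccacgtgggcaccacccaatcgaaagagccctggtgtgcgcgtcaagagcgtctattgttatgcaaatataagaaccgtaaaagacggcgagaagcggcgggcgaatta
Jag1 (chr2:137116645-137116770, minus strand): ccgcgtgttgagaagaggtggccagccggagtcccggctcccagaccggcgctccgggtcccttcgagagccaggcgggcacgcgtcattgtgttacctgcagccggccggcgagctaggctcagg

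RefSeq windows were at hand for 7 of the 10 members (Hey2, Notch1, Notch2, Notch3, Jag1, Jag2 and Nrarp). The 250 bases upstream of each RefSeq start were searched on both strands for GTGGGAA, its core TGGGAA, which lies within it, and the SMAD-binding letters GTCTAGAC and CAGACA. The only match was in Hey2, where GTGGGAA is on the strand opposite to the gene, 207 to 201 bases upstream of the RefSeq start. That start lies inside the GENCODE model given above, and the letters printed stop where the GENCODE model begins. Among 32851 promoters of the same length, 5.42% held GTGGGAA, 21.6% TGGGAA, 0.167% GTCTAGAC and 17.1% CAGACA.

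With TGF-beta the ligand Jag1 and the targets Hes1 and Hey1 rose by 4.71-fold to 14.2-fold, Notch2 rose 1.22-fold, and Notch1 fell. Nrarp was also higher, but like Heyl it passed the filter on low counts only through the TGF-beta libraries, so that its difference from them was bound to be found and its test there is not used. Hey2, Notch3 and Jag2 did not pass the test. In edgeR's quasi-likelihood test with Benjamini-Hochberg adjustment over all tested genes (called below an adjusted p of 0.05), 6 of the 9 tested members were called against control medium, 5 higher (Nrarp among them) and 1 lower, where 40.2% of all genes were called (19.7% higher and 20.5% lower). Ranges did not overlap for the 6 called members, as for 32.7% of all genes. The group was chosen with a gene from this contrast, so nothing is read from these shares. Without the control library labelled PSC4 replicate 1 and its CM and neratinib counterparts the 6 calls stood, with log2 fold changes of 3.69 for Hey1, 3.83 for Nrarp, 2.56 for Jag1, 2.29 for Hes1, 0.27 for Notch2 and -0.65 for Notch1. The median log2 fold change was 0.29 over the 9 members and -0.02 over all genes.

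In CM without TGF-beta the receptors Notch1 and Notch3 fell, the second with a call that single libraries ended, and Notch2 was not called (log2 0.05, adjusted p = 0.704). The target Hey1 had a log2 difference of -1.16 that missed the threshold (adjusted p = 0.0806) and passed it with DESeq2 (0.0396) and with a replicate block (0.0365). This made 2 of 9 members called against control medium, both lower, and Notch1 alone had ranges apart (19.8% of all genes), with 14.2% of all genes called (7.05% higher and 7.14% lower) and a median log2 fold change of -0.51 for the members against -0.000368 for all genes. With neratinib in the CM, Notch1, Notch3, Hey2, Hes1 and Jag1 were all below control medium, so that 5 of 9 members were called, all lower, where 43.1% of all genes were called (22.2% higher and 20.9% lower). Ranges were apart for 5 members (29.4% of all genes), Hey1 among them in place of Jag1. Without the libraries labelled PSC4 replicate 1 the count of calls was 3, and Hes1 and Jag1 were no longer among them. Within CM, neratinib lowered Notch1 alone among the 9 (1 of 9 called, with 20.5% of all genes called, 10.8% higher and 9.63% lower), while ranges were apart for Notch1, Hes1 and Hey2 (18.7% of all genes). CM and TGF-beta differed in 6 of the 9 members, all lower in CM and Nrarp among them, where 35.3% of all genes were called (17.8% higher and 17.5% lower). Ranges were apart for 5 of them (31.5% of all genes). That contrast, too, holds the values that chose Heyl.

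**Figure D1:**
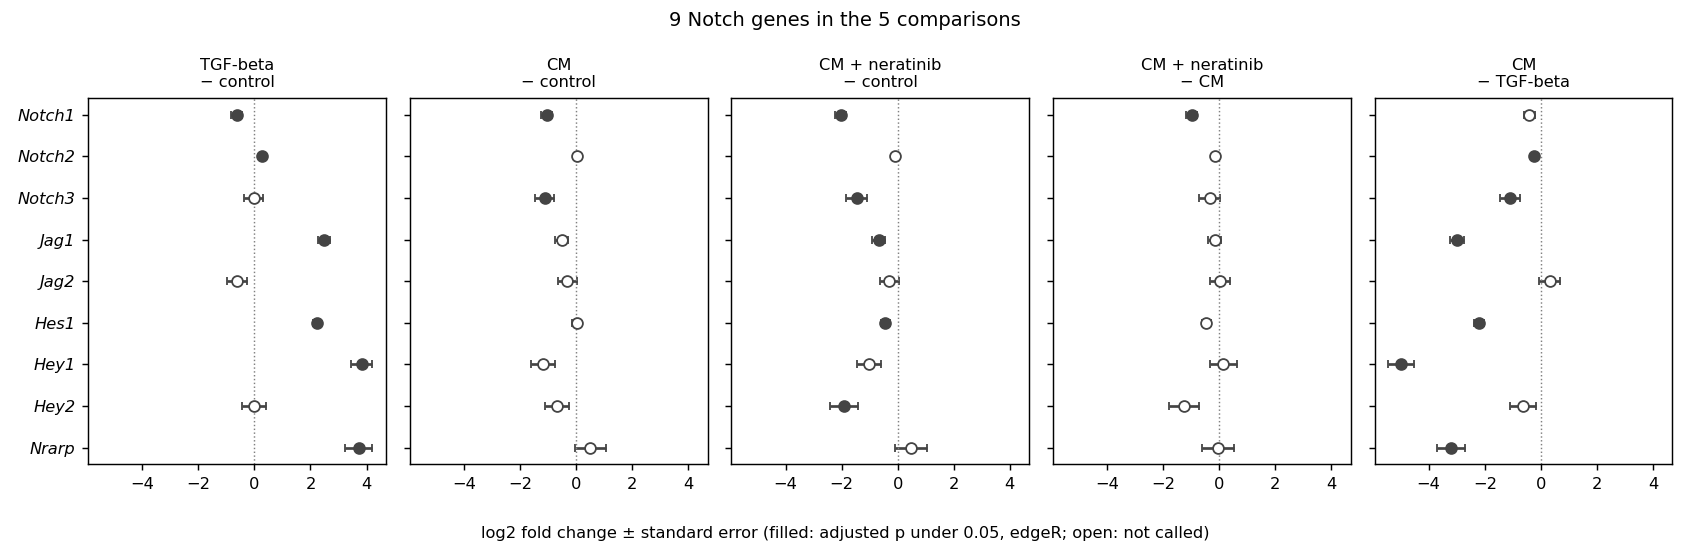
Log2 fold change (x axis) of the 9 tested Notch genes (y axis) in the 5 comparisons, 1 panel each, with standard errors from edgeR as bars and filled circles for an adjusted p under 0.05. With TGF-beta 5 genes lie to the right of 0 as filled circles (for Nrarp the filter on low counts fixed this) and Notch1 to the left, while both CM comparisons with control medium have filled circles only to the left.

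Jag1 encodes a membrane-bound ligand of the Notch receptors. It was measured at 17.0, 11.9 and 10.2 CPM in the control libraries of PSC4 and 16.3 and 16.8 CPM in those of PSC5. With TGF-beta it stood at 78.9 and 95.1 CPM in PSC4 and 55.6 and 90.9 CPM in PSC5. The lowest TGF-beta library was thus above every other library of the series. The log2 fold change was 2.47 ± 0.22 (SE; adjusted p = 8.69e-07, edgeR), or 5.55-fold, with mean CPM of 14.4 ± 3.15 (SD, n = 5) in control medium and 80.1 ± 17.8 with TGF-beta (SD, n = 4).

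In CM, Jag1 was at 9.38, 9.91, 9.10 and 12.5 CPM, a mean of 10.2 ± 1.54 CPM (SD, n = 4). The ranges overlapped those of control medium and the test was not passed (log2 -0.51 ± 0.22, SE, adjusted p = 0.140). CM with neratinib gave 4.94 CPM in the library labelled PSC4 replicate 1 and 8.83, 11.8 and 11.4 CPM in the others. Against control medium this was a fall by 0.68 ± 0.23 in log2 (SE; adjusted p = 0.0252), although the ranges overlapped. The call was lost without the neratinib library labelled PSC4 replicate 1 (adjusted p = 0.0896), the control library labelled PSC4 replicate 1 (0.0545) or the control library PSC5 replicate 2 (0.0535). Without all 3 libraries labelled PSC4 replicate 1 the log2 fold change of Jag1 was -0.39 (adjusted p = 0.160). Within the libraries numbered 1, where CM was T8, it was -1.06 (adjusted p = 0.155). Within those numbered 2, where CM was T6, it was -0.49 (adjusted p = 0.0130).

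Jag2, the other Jagged ligand, was low throughout. Its group means were 0.843 ± 0.269 CPM in control medium (SD, n = 5), 0.539 ± 0.147 with TGF-beta, 0.671 ± 0.172 in CM and 0.676 ± 0.304 CPM with neratinib (SD, n = 4 each), from 9 to 33 counts per library. The 4 ranges overlapped and Jag2 was called in none of the 5 comparisons; with TGF-beta the log2 difference was -0.63 ± 0.35 (SE; adjusted p = 0.170). Per kilobase of exon, a scale for a rough comparison of genes, Jag2 (0.121 CPM per kb) was at a small part of the level of Jag1 (2.48 CPM per kb) in control medium and further below it with TGF-beta (0.0774 against 13.7 CPM per kb). The length is that of all annotated exons of a gene merged, which can exceed the length of a single transcript.

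Notch1 encodes a receptor with roles in many tissues. It was highest in control medium, at 82.8, 85.3 and 70.0 CPM in PSC4 and 78.5 and 87.5 CPM in PSC5. It was lower in every library of the 3 other groups, at 65.9 and 57.7 CPM (PSC4) and 45.4 and 38.8 CPM (PSC5) with TGF-beta, and at 40.8 and 40.8 CPM (PSC4) and 30.8 and 43.5 CPM (PSC5) in CM. With neratinib it was lowest, at 12.0 and 23.5 CPM in PSC4 and 21.6 and 21.9 CPM in PSC5.

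Against control medium the mean of 80.8 ± 6.91 CPM for Notch1 (SD, n = 5) thus fell to 52.0 ± 12.2 with TGF-beta, 39.0 ± 5.63 in CM and 19.7 ± 5.24 CPM with neratinib (SD, n = 4 each). The log2 changes were -0.64 ± 0.18 (adjusted p = 0.0118), -1.05 ± 0.19 (adjusted p = 0.00252) and -2.02 ± 0.19 (SE; adjusted p = 5.25e-06, edgeR). Adding neratinib to CM lowered Notch1 by a further 0.98 ± 0.20 in log2 (SE; adjusted p = 0.00394), and no neratinib library reached the lowest CM library. The drop from control medium to CM was -1.16 within libraries numbered 1 and -1.03 within those numbered 2. That from CM to CM with neratinib was -1.11 and -0.90. Only the values within number 2 passed the test, with adjusted p = 0.0407 and 0.0399, against 0.224 and 0.320 within number 1. Of all genes, 0 were called within number 1 in either comparison, so the lack of a call there says nothing about Notch1. Without the libraries labelled PSC4 replicate 1 the neratinib step of Notch1 was -0.78 (adjusted p = 0.00979), and with only the CM and neratinib libraries in the model it was -0.99 (adjusted p = 0.0505).

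Notch2 was the most abundant receptor and the steadiest member. Control libraries lay between 173 and 200.1 CPM, CM libraries between 165 and 204 CPM and neratinib libraries between 158 and 187 CPM. The TGF-beta libraries were at 230.1 and 228 CPM in PSC4 and 217 and 207 CPM in PSC5, just above all others. The rise was 1.22-fold (log2 0.29 ± 0.07, SE, adjusted p = 0.00461, edgeR), and Notch2 passed the test in no comparison with control medium beside this one. CM was below TGF-beta by 0.24 ± 0.07 in log2 (SE; adjusted p = 0.0207). That call was lost without TGF-beta PSC4 replicate 2 (0.0556) or 3 (0.0511), the CM library labelled PSC4 replicate 1 (0.0544) or CM PSC5 replicate 2 (0.0790). It was also lost within the libraries numbered 1, where TGF-beta has 1 library. Neratinib within CM gave a log2 difference of -0.15 ± 0.07 (SE; adjusted p = 0.180), which passed the test only when PSC5 replicate 1 with neratinib was left out (-0.21, adjusted p = 0.0383).

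Notch3, the receptor of mural cells, varied most among the receptors. Its control libraries read 102, 57.7 and 46.4 CPM in PSC4 and 96.6 and 105 CPM in PSC5, so that the library labelled PSC4 replicate 1 lay with PSC5. The TGF-beta libraries spanned the same range (90.5, 79.9, 106 and 43.6 CPM), and the log2 difference was -0.02 ± 0.34 (SE; adjusted p = 0.972). In CM the values were 45.6 and 24.9 CPM in PSC4 and 31.0 and 50.2 CPM in PSC5, a fall by 1.12 ± 0.35 in log2 (SE; adjusted p = 0.0450).

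That call on Notch3 was lost without any 1 of 7 libraries: control PSC4 replicate 1 (adjusted p = 0.0919) or 2 (0.0590), control PSC5 replicate 1 (0.0811) or 2 (0.0899), CM PSC4 replicate 2 (0.122), and CM PSC5 replicate 1 (0.150) or 2 (0.0691). It was also lost without the cell line term (0.0698). The drop of Notch3 was -1.35 within libraries numbered 1 (adjusted p = 0.376) and -1.12 within those numbered 2 (adjusted p = 0.222). With neratinib, Notch3 was at 11.6 and 26.5 CPM in PSC4 and 42.1 and 45.4 CPM in PSC5, all below the lowest control library. The log2 fold change against control medium was -1.47 ± 0.36 (SE; adjusted p = 0.00471) and was -1.07 (adjusted p = 0.0163) without the libraries labelled PSC4 replicate 1. It was -1.99 (adjusted p = 0.132) within number 1 and -1.17 (adjusted p = 0.105) within number 2. Neratinib added to CM made no difference that passed the test (log2 -0.34 ± 0.37, SE, adjusted p = 0.548). CM was below TGF-beta by 1.10 ± 0.36 (SE; adjusted p = 0.0284). This call was lost without TGF-beta PSC4 replicate 2 (0.0826) or 3 (0.0668), TGF-beta PSC5 replicate 1 (0.0660), CM PSC4 replicate 2 (0.0803) or CM PSC5 replicate 1 (0.0826). It was also lost within number 2 (0.177) and within number 1, where TGF-beta has 1 library.

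Set per kilobase of exon, the shares of the 3 receptors in their sum differed between conditions. The merged exons held 14232 bases for Notch1, 10782 for Notch2 and 8089 for Notch3, and the size of each share depends on these lengths. Notch2 made up 52.1 ± 7.40% of their sum in control medium (SD, n = 5), 60.8 ± 6.59% with TGF-beta, 70.0 ± 6.56% in CM and 75.5 ± 8.29% with neratinib (SD, n = 4 each). The share of Notch1 was 17.5 ± 0.963%, 10.7 ± 1.64%, 11.1 ± 1.72% and 6.57 ± 1.30% in the same order. That of Notch3 was 30.4 ± 8.10%, 28.5 ± 6.66%, 18.9 ± 5.69% and 17.9 ± 7.53%. The Notch1 shares of control libraries (16.5% to 18.9%) did not overlap with those of any other group (4.92% to 12.5%).

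**Figure D2:**
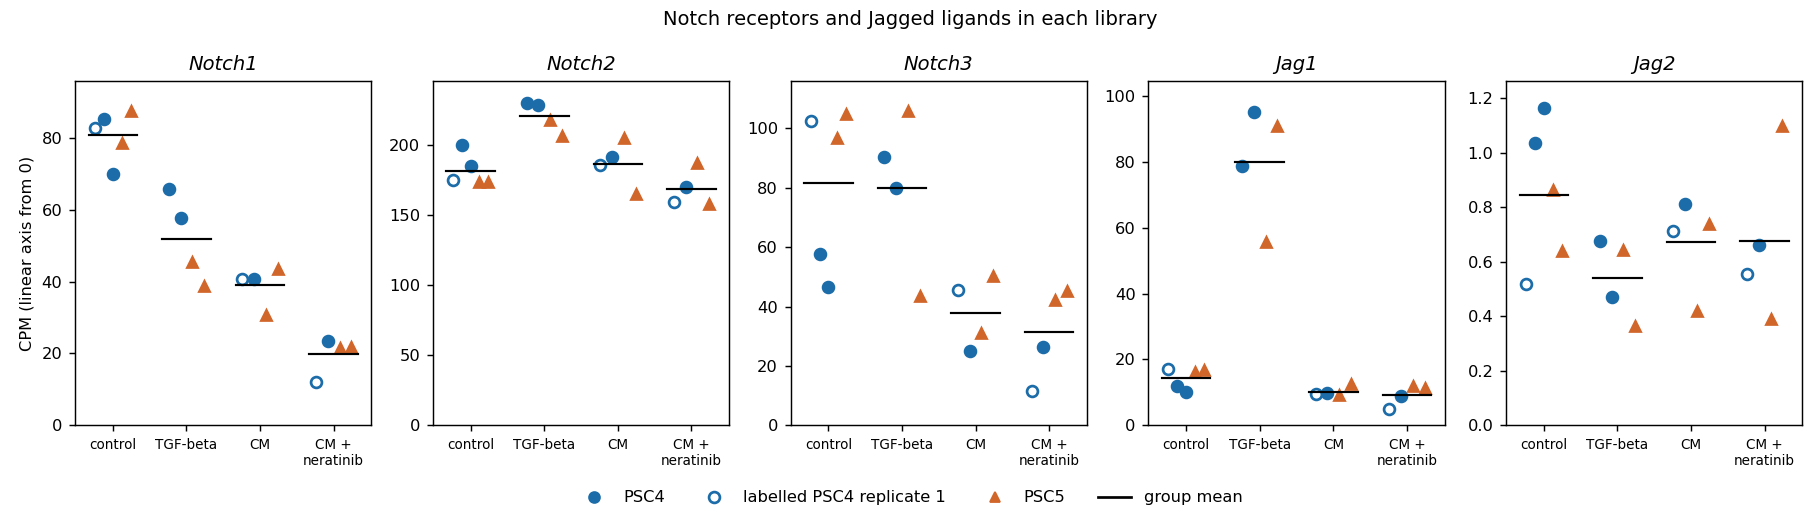
CPM (y axis, linear from 0) of Notch1, Notch2, Notch3, Jag1 and Jag2 in each of the 17 libraries by condition (x axis), with circles for PSC4, hollow circles for libraries labelled PSC4 replicate 1, triangles for PSC5 and a line at the group mean. Notch1 steps down from a mean of 80.8 CPM in control medium to 19.7 CPM with neratinib, and the TGF-beta libraries of Jag1 (55.6 to 95.1 CPM) lie above all others.

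Heyl, a HEY family repressor, was the gene that defined the group. Its TGF-beta libraries held 433 and 465 counts in PSC4 and 171 and 310 counts in PSC5, or 16.3, 16.8, 7.35 and 12.6 CPM (mean 13.3 ± 4.35 CPM, SD, n = 4). Among the 13 other libraries there were 3 counts in all, 1 each in the control libraries PSC4 replicates 1 and 3 and in the CM library PSC4 replicate 2. The summed CPM with TGF-beta was 928 times that of control medium (95% interval 257 to 7674, for 2 control counts) and 1536 times that of CM (275 to 60694, for 1 count), where the intervals cover counting error only. Against CM with neratinib, where no count was found, Heyl was at least 424-fold higher, taking 3 counts over that group as the floor.

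Hey1, a close relative of Heyl, had a low but measurable level without TGF-beta. The control libraries read 0.676, 1.25 and 1.23 CPM in PSC4 and 0.718 and 0.674 CPM in PSC5. With TGF-beta they were 19.4 and 16.7 CPM in PSC4 and 4.90 and 10.9 CPM in PSC5. Every TGF-beta library was above every other library, and Hey1 rose 14.2-fold (log2 3.83 ± 0.38, SE, adjusted p = 2.80e-06, edgeR), the largest fold among the 9 tested members.

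In CM, Hey1 lay at 0.306 and 0.741 CPM in PSC4 and 0.115 and 0.402 CPM in PSC5, and with neratinib at 0.213, 0.545, 0.562 and 0.321 CPM. In CM the T6 library, which also had the higher epithelial marker sum, was the higher of each line. With neratinib the T6 library was the higher in PSC4 (0.545 against 0.213 CPM, epithelial sums 146 and 10.0 CPM). In PSC5 it was the lower (0.321 against 0.562 CPM, epithelial sums 325 and 52.9 CPM). A part of the epithelial markers in the Hey1 values was not tested. Both groups had lower means (0.391 and 0.410 CPM) than control medium (0.911 CPM). The log2 differences from control medium of -1.16 ± 0.42 (adjusted p = 0.0806) and -1.03 ± 0.43 (SE, adjusted p = 0.0686) did not pass the test. With a block for cell line and replicate number they did, at -1.12 (adjusted p = 0.0365) and -0.97 (adjusted p = 0.0364), and DESeq2 called both (adjusted p = 0.0396 and 0.0434). Without the control library labelled PSC4 replicate 1 or the neratinib library PSC5 replicate 1 the second difference of Hey1 also passed (adjusted p = 0.0476 and 0.0269).

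Hey2, the HEY family member of heart and vessels, followed neither of the 2 others. It was at 0.437, 0.644, 0.458, 0.826 and 0.319 CPM in control medium (9 to 23 counts) and at 0.601, 0.867, 0.258 and 0.366 CPM with TGF-beta, with a log2 difference of -0.02 ± 0.43 (SE; adjusted p = 0.976). In CM it was at 0.272, 0.247, 0.574 and 0.268 CPM (log2 -0.67 ± 0.44, SE, adjusted p = 0.337). With neratinib it fell to 0.0851 and 0.0778 CPM in PSC4 and 0.216 and 0.183 CPM in PSC5, or 2 to 5 counts a library. These lay below all control libraries, and the log2 fold change was -1.93 ± 0.50 (SE; adjusted p = 0.00639, edgeR). It was -2.06 within libraries numbered 1 (adjusted p = 0.109), -1.84 within those numbered 2 (adjusted p = 0.0888) and -1.79 without the libraries labelled PSC4 replicate 1 (adjusted p = 0.0304). The difference from CM, -1.25 ± 0.52, did not pass (SE; adjusted p = 0.102). The promoter of Hey2, printed above, holds the GTGGGAA match, as 5.42% of all promoters do. Heyl, Hey1 and Hes1 had no window to search, and a part of the match in these values was not tested.

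Hes1, a widely used readout of Notch activity, was expressed in all conditions. It was at 9.94, 7.29 and 8.70 CPM in the PSC4 controls and 8.98 and 7.52 CPM in the PSC5 controls. TGF-beta libraries held 35.9 and 54.4 CPM in PSC4 and 29.8 and 39.5 CPM in PSC5. The groups were far apart, with a 4.71-fold rise (log2 2.24 ± 0.15, SE, adjusted p = 7.39e-08, edgeR).

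CM left Hes1 at 8.66, 8.61, 7.80 and 9.29 CPM, and the log2 difference from control medium was 0.03 ± 0.15 (SE; adjusted p = 0.930). With neratinib Hes1 was at 5.15, 6.30, 7.22 and 6.19 CPM, below the lowest control and CM library. Against control medium the log2 fold change was -0.44 ± 0.16 (SE; adjusted p = 0.0364). It was -0.38 (adjusted p = 0.0544) with the replicate block and -0.29 (adjusted p = 0.217) without the libraries labelled PSC4 replicate 1. Within libraries numbered 1 it was -0.62 (adjusted p = 0.159) and within those numbered 2 -0.24 (adjusted p = 0.132). The call was also lost with no low-count filter (0.0502) and without control PSC4 replicate 1 (0.0738) or 3 (0.0585), control PSC5 replicate 1 (0.0836), or neratinib PSC4 replicate 1 (0.134), PSC4 replicate 2 (0.0734) or PSC5 replicate 2 (0.0643). Against CM, the log2 difference of -0.47 ± 0.17 (SE) missed the threshold at adjusted p = 0.0590 but passed with the replicate block (-0.46, adjusted p = 0.0385), with DESeq2 (adjusted p = 0.0449) and without neratinib PSC5 replicate 1 (-0.56, adjusted p = 0.0307).

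Nrarp, the feedback inhibitor, was close to the floor without TGF-beta. The 13 other libraries held 2 to 8 counts each, with means of 0.110 ± 0.0403 CPM in control medium (SD, n = 5), 0.147 ± 0.0847 in CM and 0.147 ± 0.0737 CPM with neratinib (SD, n = 4 each). TGF-beta libraries held 67 and 38 counts in PSC4 and 11 and 38 counts in PSC5, or 2.52, 1.37, 0.473 and 1.55 CPM. All 4 exceeded every other library, and the fitted fold was 13.2 (log2 3.72), given without a test because Nrarp passed the filter only through these libraries. The CM and neratinib groups differed from control medium by 0.52 ± 0.55 and 0.48 ± 0.57 in log2 (SE; adjusted p = 0.580 and 0.519).

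**Figure D3:**
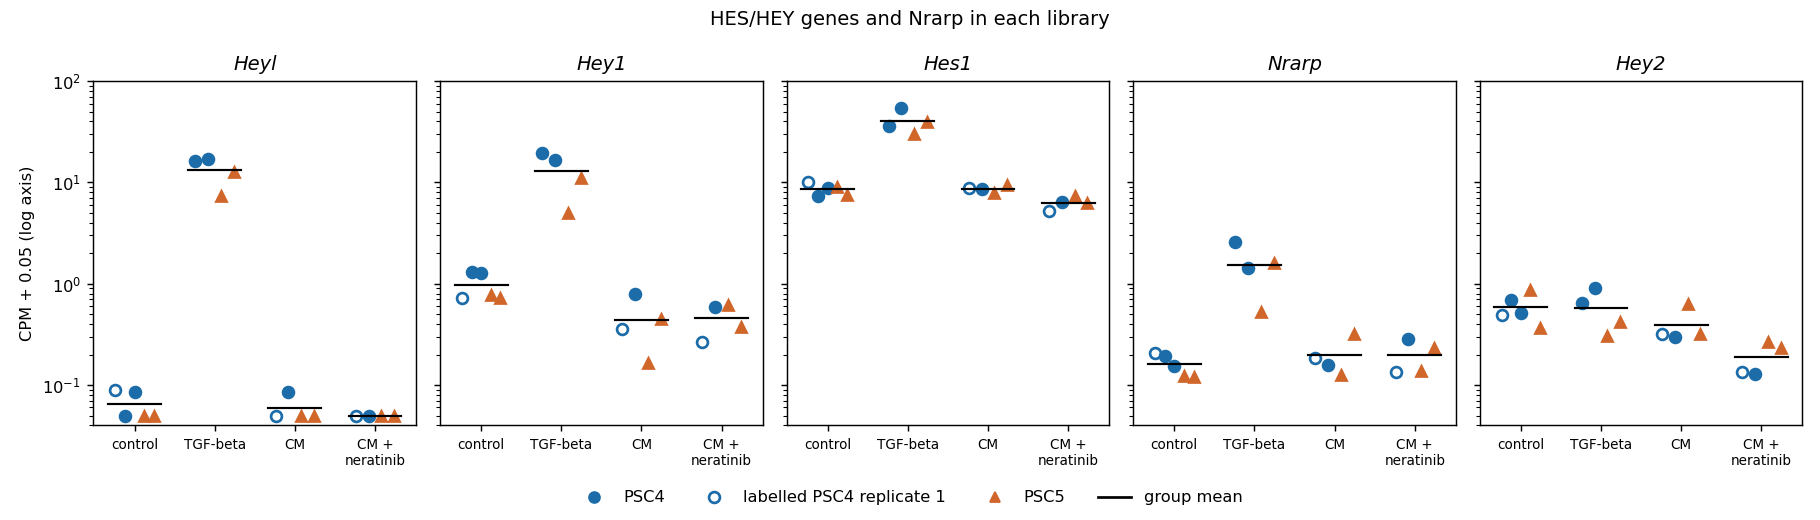
CPM + 0.05 on a log axis (y) for Heyl, Hey1, Hes1, Nrarp and Hey2 in each of the 17 libraries by condition (x axis), with circles for PSC4, hollow circles for libraries labelled PSC4 replicate 1, triangles for PSC5 and a line at the group mean. The TGF-beta libraries of the first 4 genes lie above all others, those of Hey2 do not, and the triangle of PSC5 replicate 1 is the lowest TGF-beta point of every panel.

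Across the 10 members, Heyl, Hey1, Hes1, Nrarp, Jag1 and Notch2 had all 4 TGF-beta libraries above all 13 others, as did 7.56% of the 13923 tested genes. Heyl was chosen for this pattern and Nrarp could pass the filter only with it, so nothing is read from the count. PSC5 replicate 1 was the lowest TGF-beta library for Heyl, Hey1, Hey2, Hes1, Jag1 and Nrarp, and the highest exceeded it by 1.71-fold for Jag1, 1.83-fold for Hes1, 2.28-fold for Heyl, 3.36-fold for Hey2, 3.96-fold for Hey1 and 5.32-fold for Nrarp. For Notch3 the same library was the highest of the 4 (106 CPM against 43.6 CPM in PSC5 replicate 2). Pericyte and smooth muscle markers (8 genes) summed to 129 to 146 CPM with TGF-beta, 74.0 to 79.8 CPM in control medium, 45.1 to 53.2 CPM in CM and 18.2 to 53.7 CPM with neratinib. Of these, Cspg4 (30.9 to 90.7 CPM with TGF-beta against 1.87 to 5.83 CPM in control medium) and Mcam (39.7 to 75.0 CPM against 33.3 to 37.2 CPM) lay above their control ranges, while Cnn1 (11.7 to 32.1 CPM), Rgs5 (0.614 to 3.22 CPM), Kcnj8 (at most 0.263 CPM), Abcc9 (at most 0.376 CPM), Myh11 (at most 0.263 CPM) and Lmod1 (2.10 to 3.65 CPM) overlapped or lay below their control ranges. None of the 8 was at 0 in a whole group, and their part in the Notch gene changes was not tested.

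On the per-kilobase scale, the order of the 10 genes in control medium ran from Notch2 (16.8 CPM per kb) over Notch3 (10.1), Notch1 (5.68), Hes1 (4.17), Jag1 (2.48), Hey1 (0.279), Jag2 (0.121), Hey2 (0.117) and Nrarp (0.0426) to Heyl (0.00293 CPM per kb). With TGF-beta Hes1 (19.6 CPM per kb) and Jag1 (13.7) moved next to Notch2 (20.5), followed by Notch3 (9.88), Hey1 (3.98), Notch1 (3.65), Heyl (2.59), Nrarp (0.572), Hey2 (0.114) and Jag2 (0.0774 CPM per kb). Several neighbours in these orders differed by less than the spread between libraries. Among them were Jag2 and Hey2 in both conditions and, with TGF-beta, Notch2 and Hes1 as well as Hey1 and Notch1. The order also depends on the merged exon lengths.

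CM was also set against TGF-beta for the same genes. Hey1 was 31.9-fold lower in CM (log2 -4.99 ± 0.45, SE, adjusted p = 1.21e-06, edgeR), Jag1 7.93-fold (log2 -2.99 ± 0.24, adjusted p = 4.90e-07) and Hes1 4.62-fold (log2 -2.21 ± 0.17, SE, adjusted p = 2.10e-07). Nrarp was 9.23-fold lower, without a test for the reason above. Notch1 was not called (log2 -0.41 ± 0.19, SE, adjusted p = 0.113). The comparisons of TGF-beta with control medium and with CM share the TGF-beta libraries, so they are not independent of each other.

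Whether the effects differed between PSC4 and PSC5 was tested with interaction terms. None of the 9 members was called for TGF-beta, for CM or for neratinib within CM by edgeR, none had an unadjusted p under 0.05 (the smallest were 0.0810, 0.252 and 0.183), and DESeq2 called none. Of all genes, 0% were called by edgeR in each of the 3 tests, and DESeq2 called 27, 0 and 1. edgeR had 601, 43 and 237 genes at an unadjusted p under 0.05, fewer each time than chance alone gives among 13923. The lack of calls therefore does not show that the lines respond alike. With PSC4 replicate 1 moved to PSC5 in every group, edgeR called 3 genes for TGF-beta and 0 of the 9 members. There, 1128 genes had an unadjusted p under 0.05, and the smallest of a member was 0.0666. For CM and neratinib this leaves PSC4 replicate 2 alone in its line, so no counts are given. With the lines as labelled, the difference in the TGF-beta effect, PSC5 minus PSC4, was largest for Hey2 (log2 -1.37). PSC4 read 0.601 and 0.867 CPM of Hey2 with TGF-beta and PSC5 0.258 and 0.366 CPM.

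A list of 73 other pathway genes, of which 63 passed the filter, gave the setting of the 10. With TGF-beta, 14 rose and 17 fell, or 49.2% called against the 40.2% of all genes, with a median log2 fold change of -0.01 against -0.02. In CM 2 rose and 7 fell (14.3% called, against 14.2% of all genes), and with neratinib 14 rose and 14 fell against control medium (44.4% against 43.1%). Neratinib within CM raised 4 and lowered 8 (19.0% against 20.5%), and CM against TGF-beta had 12 higher and 14 lower (41.3% against 35.3%). The counts by role below are to be read against 19.7% of all genes higher and 20.5% lower with TGF-beta, 7.05% and 7.14% in CM, and 22.2% and 20.9% with neratinib. The 10 genes not past the filter were Dll3, Dll4, Dner, Mfng, Dtx1, Rbpjl, Hes2, Hes3, Hes5 and Helt.

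Notch4, the fourth receptor and known from endothelium, rose with TGF-beta and stood at 0.785 ± 0.217 CPM in control medium (SD, n = 5) and 2.47 ± 0.993 CPM with TGF-beta (SD, n = 4; log2 1.64 ± 0.31, SE, adjusted p = 0.000765, edgeR). Of the Delta-like ligands, Dll1 was at 1.23 ± 0.972 CPM in control medium (SD, n = 5) and 2.17 ± 1.16 CPM with TGF-beta (SD, n = 4), with no call in any comparison (TGF-beta log2 0.98 ± 0.54, SE, adjusted p = 0.162). Dll4, the endothelial tip cell ligand, stayed below the filter, at 0.137 ± 0.104 CPM in control medium (SD, n = 5), 0.176 ± 0.0287 in CM, 0.0418 ± 0.0348 with neratinib and 0.0102 ± 0.0203 CPM with TGF-beta (SD, n = 4 each).

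Among the tested genes of the list, the non-canonical ligands and receptor-binding proteins held the largest falls against control medium. Of the 6 tested, 4 fell and 1 rose with TGF-beta, 2 fell in CM and 4 fell with neratinib, where 20.5%, 7.14% and 20.9% of all genes fell. Ccn3, a matricellular protein that binds the NOTCH1 receptor, fell from 404 ± 73.1 CPM in control medium (SD, n = 5) to 35.4 ± 25.2 with TGF-beta (log2 -3.51 ± 0.47, adjusted p = 3.65e-05), 114 ± 47.7 in CM (log2 -1.82 ± 0.43, adjusted p = 0.0129) and 60.2 ± 5.81 CPM with neratinib (SD, n = 4 each; log2 -2.75 ± 0.45, SE, adjusted p = 0.000291, edgeR). The CM call of Ccn3 was lost without CM PSC5 replicate 1 (log2 -1.65, adjusted p = 0.0538). Dlk1, a Delta-like protein without the receptor-activating domain, stood at 194 ± 83.1 CPM in control medium and 99.0 ± 70.5 CPM with TGF-beta (log2 -1.34 ± 0.44, SE, adjusted p = 0.0241). That call on Dlk1 did not hold without the control library labelled PSC4 replicate 1 (0.0524), TGF-beta PSC4 replicate 2 (0.0869) or TGF-beta PSC4 replicate 3 (0.0892), or without the cell line term (0.206).

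Dlk1 fell further in CM, to 42.4 ± 29.0 CPM (log2 -2.35 ± 0.45, SE, adjusted p = 0.00417), and with neratinib, to 18.7 ± 11.7 CPM (log2 -3.60 ± 0.48, SE, adjusted p = 6.92e-05). Its relative Dlk2 fell with TGF-beta (log2 -1.28, adjusted p = 0.00294) and with neratinib against both control medium (log2 -2.80, adjusted p = 2.25e-05) and CM (log2 -2.03, adjusted p = 0.00113). The microfibril proteins Mfap2 and Mfap5 went apart with TGF-beta. Mfap2 fell (log2 -1.40 ± 0.37, SE, adjusted p = 0.00680, from 39.4 to 17.4 CPM) and Mfap5 rose (log2 3.45 ± 0.60, SE, adjusted p = 0.000353, from 1.73 to 19.1 CPM), although the ranges of both overlapped control medium. With neratinib Mfap2 was lower than in control medium (log2 -2.71, adjusted p = 0.000118) and in CM (log2 -1.69, adjusted p = 0.00802).

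Among the enzymes that modify the receptor, Lfng, which adds sugars to its extracellular repeats, fell in all 3 conditions. Its mean went from 8.47 ± 0.999 CPM in control medium (SD, n = 5) to 5.37 ± 0.610 with TGF-beta (log2 -0.67, adjusted p = 0.0140), 3.09 ± 0.446 in CM (log2 -1.46, adjusted p = 0.000487) and 2.12 ± 0.750 CPM with neratinib (SD, n = 4 each; log2 -2.02, adjusted p = 9.97e-06, edgeR). Of the 10 proteases, 1 rose and 3 fell with TGF-beta against control medium, where 40.2% of all genes were called. Also against control medium, 1 rose and 0 fell in CM (14.2% of all genes called). In CM with neratinib 6 rose and 1 fell (43.1%). Neratinib within CM raised 2 and lowered 0 (20.5% of all genes called). Adam10, which sheds the receptor ectodomain after ligand binding, was 283 ± 19.6 CPM in control medium and 221 ± 22.5 CPM with TGF-beta (log2 -0.35 ± 0.06, SE, adjusted p = 0.000420). Adam17 was higher than in control medium (118 CPM) both in CM (156 CPM, log2 0.42 ± 0.09, SE, adjusted p = 0.00961) and in CM with neratinib (153 CPM, log2 0.39 ± 0.09, adjusted p = 0.00403). Aph1c, a gamma-secretase subunit, was lower in CM with neratinib than in control medium (1.64 against 3.53 CPM, log2 -1.09, adjusted p = 0.00970). In CM without neratinib it was already at 2.02 CPM.

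Of 5 genes listed under ligand endocytosis, 2 rose and 2 fell with TGF-beta (40.2% of all genes called). Neurl3 fell from 3.80 to 1.26 CPM with TGF-beta (log2 -1.71 ± 0.27, SE, adjusted p = 0.000152, edgeR) and from 5.72 CPM in CM to 2.81 CPM with neratinib (log2 -1.04 ± 0.26, SE, adjusted p = 0.0123). Of the 9 tested genes of receptor trafficking and turnover, Dtx3l was the only one called with a log2 fold of at least 1, from 87.9 CPM in CM to 41.3 CPM with neratinib (log2 -1.11 ± 0.22, SE, adjusted p = 0.00358).

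In the nuclear complex the TGF-beta differences lay between -0.53 and 0.07 on the log2 scale. Rbpj, the DNA-binding partner of the receptor's intracellular domain, was at 299 ± 12.0 CPM in control medium (SD, n = 5), 308 ± 65.4 with TGF-beta, 335 ± 24.8 in CM and 353 ± 43.9 CPM with neratinib (SD, n = 4 each), and was called in none of the 5 comparisons (TGF-beta log2 0.01 ± 0.10, SE, adjusted p = 0.949). The coactivator Maml1 differed by -0.01 ± 0.08 with TGF-beta (SE, adjusted p = 0.921). It was higher in CM with neratinib than in control medium (80.7 against 62.7 CPM, log2 0.34 ± 0.08, SE, adjusted p = 0.00447), and stood at 75.5 CPM in CM. Of the 9 tested genes of this complex, none rose and 1 fell with TGF-beta, where 19.7% and 20.5% of all genes did.

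The corepressors that keep Notch targets silent went both ways, with 5 higher and 4 lower of 14 with TGF-beta (19.7% and 20.5% of all genes). The Groucho family members Tle4 and Tle2 fell. Tle4 went from 20.3 to 5.50 CPM (log2 -1.89 ± 0.12, SE, adjusted p = 2.36e-08, edgeR) and Tle2 from 65.7 to 29.2 CPM (log2 -1.17 ± 0.29, SE, adjusted p = 0.00529). Tle2 was also lower in CM with neratinib than in control medium, at 17.9 CPM (log2 -1.87 ± 0.31, SE, adjusted p = 0.000315), and stood at 32.8 CPM in CM.

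The other HES genes past the filter, Hes6 and Hes7, were not called with TGF-beta. Bhlhe40 and Bhlhe41, listed beside them as relatives outside the HES family, rose. Their repressors are also known from the circadian clock. Bhlhe40 went from 73.5 ± 16.6 CPM in control medium (SD, n = 5) to 303 ± 46.7 CPM with TGF-beta (SD, n = 4; log2 2.09 ± 0.18, SE, adjusted p = 7.28e-07, edgeR). No tested member rose in CM, but Bhlhe40 did (149 CPM, log2 1.06 ± 0.18, SE, adjusted p = 0.00181) and it was also higher with neratinib (158 CPM, log2 1.15 ± 0.18, SE, adjusted p = 0.000213). Bhlhe41 rose with TGF-beta from 8.13 ± 3.06 to 69.8 ± 34.0 CPM (log2 3.16 ± 0.24, SE, adjusted p = 2.04e-07) and fell in CM to 3.55 CPM (log2 -1.09 ± 0.26, SE, adjusted p = 0.0129, and 0.0819 without the cell line term), with overlapping ranges.

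**Figure D4:**
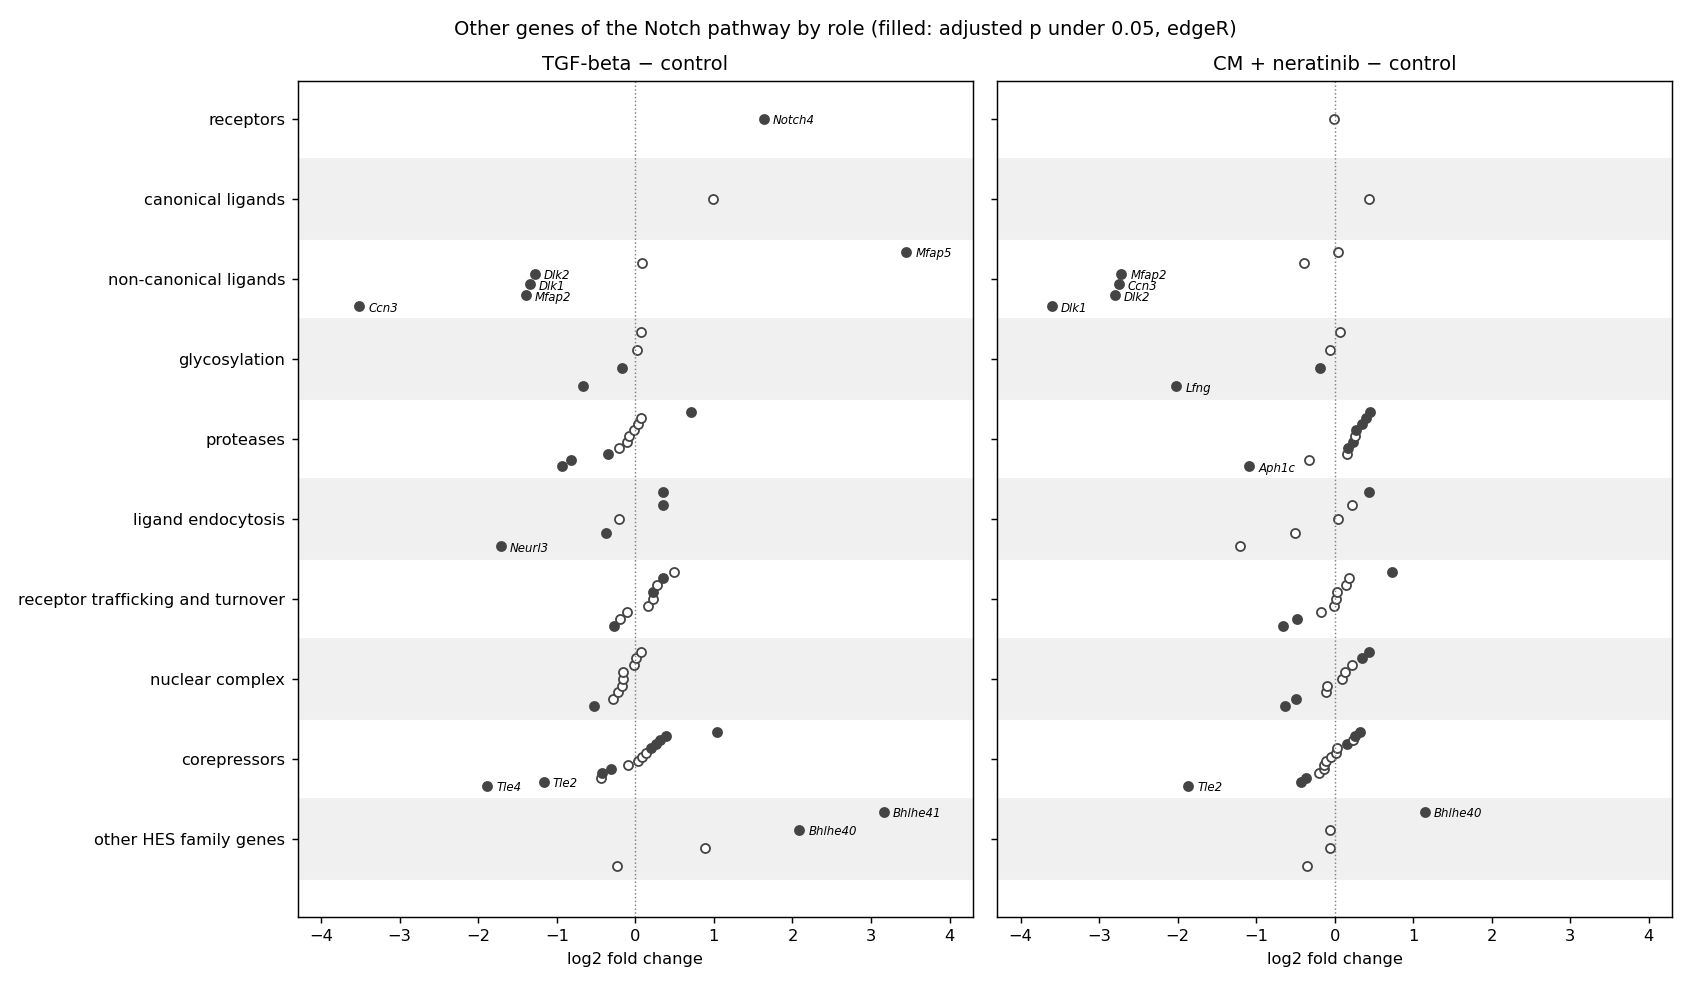
Log2 fold change (x axis) of the 63 tested other pathway genes by role (y axis; the height within a band only separates the points) for TGF-beta and for CM with neratinib, each against control medium, with filled circles for an adjusted p under 0.05. Ccn3, Dlk1, Dlk2 and Mfap2 lie left of -1 in both panels, Mfap5 (3.45) and Bhlhe41 (3.16) lie farthest right in the TGF-beta panel, and Rbpj lies at 0.01 and 0.22.

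The genes whose levels ran most like a member over the 17 libraries were found by the root mean square difference of centred log2 CPM (prior count 2). For Heyl these were Ctsw (0.549), Plxna4 (0.646), Piezo2 (0.650), Tnnt2 (0.693) and Tnni1 (0.701). Ctsw, for example, had a mean of 28.1 ± 7.87 CPM with TGF-beta (SD, n = 4) and 0.0570 ± 0.0318 CPM in control medium (SD, n = 5). Nearest to Hes1 were Ubash3b (0.246), Ank (0.298) and Arl4c (0.305), and nearest to Jag1 were Ank (0.311), Nfatc1 (0.316) and Ncam1 (0.338), so that Ank was near both. Ank, a pyrophosphate transporter, was at 210 ± 34.2 CPM in control medium (SD, n = 5) and 818 ± 237 CPM with TGF-beta (SD, n = 4). Near to Notch3 were Hacd4 (0.357) and Hist1h1c (0.368). These are descriptions over the same libraries and were not tested.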

How the data were processed

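RNA was measured by sequencing of mRNA libraries from 17 cultures. The authors quantified reads with Salmon 1.4.0, per the submitters' processing notes, which also name the builds GRCm38 and mm10 and the tool DESeq 2 without saying for which step. The authors deposited 1 file for each library with expected counts by Ensembl ID, scaled neither to depth nor to length, and no transcriptome, read filter or strand setting is given in the sources used here. The expected counts were rounded to whole numbers. All files hold the same 35896 gene IDs, of which 35437 matched a symbol, and 0 columns were unused.

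In edgeR 4.0.16 (R 4.3.3), quasi-likelihood models were fitted over all 17 libraries with group and cell line as terms, TMM factors and filterByExpr (groups given, min.count 10, min.total.count 15), which left 13923 genes. CPM are counts scaled to the TMM-adjusted library total, which is taken over the 13923 genes. Adjusted p-values are Benjamini-Hochberg over all 13923 genes, with a threshold of 0.05, in 5 comparisons and 3 interaction tests. Groups were taken from the labels. The scripts were tested on simulated data. DESeq2 1.42.0 and the other alternatives are described in the closing section.

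Named were all 10 members, every gene of the 73-gene pathway list called in any comparison with a log2 fold of 1 or more in size and a higher group averaging 1 CPM or more, pathway genes taken whatever their values (Rbpj, Maml1, Adam10, Adam17, Lfng, Dll1, Dll4 and Notch4 among them), and the genes nearest to Heyl, Hes1, Jag1 and Notch3 with at least 10 CPM in their highest group. Some genes that meet this rule are not reported here. The members and lists were chosen with earlier results of these data known. Per the labels, libraries of the same line and number share a passage. After removal of group means, all 22 pairs of such libraries from different groups correlated across genes at r above 0.1 (0.120 to 0.635, median 0.299), against medians of -0.0756 for the same line with another number and -0.183 for the other line. The block has 5 levels.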

Additional observations from a re-analysis of the deposited data

Results flagged for a closer look

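Each of the 10 genes was checked in each group for a library far from the others, by comparing the gap to its nearest neighbour with the range of the group. Of 39 gene and group pairs, 3 stood out, and chance alone marks about 5% of such groups. Notch1 in the neratinib library labelled PSC4 replicate 1 was at 12.0 CPM, where the other 3 libraries lay between 21.6 and 23.5 CPM. That library was also the one with 13.1 CPM of leukocyte markers and the lowest pericyte and smooth muscle sum (18.2 CPM), and the part of either was not tested. Hey2 in the CM library PSC5 replicate 1 was at 0.574 CPM, against 0.247 to 0.272 CPM in the other CM libraries, from 15 counts against 7 to 8. Heyl in the CM library PSC4 replicate 2 was at 0.0353 CPM, which is a single count beside 3 libraries without any.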

How the results depend on the processing

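The alternatives were DESeq2, upper-quartile factors, no low-count filter, a replicate block by line and number, no cell line term, only the groups compared, the PSC4 libraries numbered 1 counted with PSC5 or removed, only libraries of 1 number, and each library left out in turn. The 6 members called with TGF-beta against control medium were called in all of these that were run, where the call of Nrarp is fixed by the filter on low counts. Leaving out each library gave 6 throughout there, 1 to 2 for CM against control medium (2 in the full fit), 3 to 6 for neratinib against control medium (5), 1 to 3 for neratinib against CM (1) and 4 to 6 for CM against TGF-beta (6). The 3 of neratinib against control medium came without the neratinib library labelled PSC4 replicate 1, and the 3 of neratinib against CM without neratinib PSC5 replicate 1.

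Other counts of called members that differed were, for CM against control medium, 3 with DESeq2, with the replicate block and with the PSC4 libraries numbered 1 counted with PSC5 (Hey1 added), 1 without the cell line term, 0 within number 1 and 1 within number 2. For neratinib against control medium they were 6 with DESeq2 and with the PSC4 libraries numbered 1 counted with PSC5, 4 with no low-count filter, 3 with the PSC4 libraries numbered 1 removed, 0 within number 1 and 3 within number 2. For neratinib against CM they were 2 with DESeq2, 2 with the replicate block, 0 with only these groups, 2 with the PSC4 libraries numbered 1 counted with PSC5, 0 within number 1 and 2 within number 2. For CM against TGF-beta the count was 0 within number 1 and 5 within number 2. Within a number each group has at most 2 libraries, with 1 TGF-beta library of number 1 that is assumed to vary like the other groups, and over all genes number 1 alone called 0, 196, 0 and 276 in these 4 comparisons.

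Sign changes occurred only among values that passed no test, and their cause was not tested. With TGF-beta, Notch3 was 0.065 with the replicate block, 0.10 with the PSC4 libraries numbered 1 counted with PSC5 and 0.16 without them, and ranged from -0.18 to 0.24 when a library was left out, as Hey2 did from -0.42 to 0.25. In CM against control medium, Hes1 was -0.019 and Notch2 -0.00097 with upper-quartile factors, Hes1 -0.20 and Nrarp -0.092 within number 1, and Notch2 -0.069 within number 2. With 1 library left out, Hes1 ranged from -0.027 to 0.080, Notch2 from -0.0088 to 0.10 and Nrarp from -0.077 to 0.76. With neratinib against control medium, Nrarp was -0.36 within number 1 and Jag2 0.10 within number 2. Against CM, with the PSC4 libraries numbered 1 removed, Notch3 was 0.10, Jag1 0.016 and Nrarp 0.072. Jag2 was -0.0086 with the replicate block and -0.26 within number 1, and Hey1 was -0.39 and Nrarp 0.12 within number 2. Leave-one-out ranges there were -0.21 to 0.48 for Hey1, -0.27 to 0.035 for Jag1, -0.39 to 0.19 for Jag2 and -0.27 to 0.59 for Nrarp. CM against TGF-beta gave 1.13 for Hey2 and -0.26 for Jag2 within number 1.

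The replicate block changed the calls of Hey1 (CM and neratinib against control medium) and Hes1 (neratinib against control medium and CM), given beside those results, and no other call of a member. Over all genes it called 3240 against 1976 in CM and 4563 against 2850 for neratinib against CM, where only those groups gave 602. Upper-quartile factors left 41.3%, 37.5% and 41.1% of all calls higher for TGF-beta, CM and neratinib against control medium, where TMM gave 49.0%, 49.7% and 51.4%. Depth limits Heyl (0 to 1 counts a library outside TGF-beta), Nrarp (2 to 8), Hey2 (2 to 23), Hey1 (3 to 35) and Jag2 (9 to 33).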
